A study of Mus musculus with 6 samples.

Results

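The 9 genes described here belong to the integrated stress response: Atf4, Atf5, Ddit3, Ddit4, Trib3, Asns, Chac1, Sesn2 and Ppp1r15a. They were chosen by name, as known components and targets of that pathway, out of the 32285 genes counted. The choice was made with earlier results of these data known. Transcripts were counted in CD8 T cells sorted as CD45+ CD3+ CD8+ Tomato+ from B16-OVA tumors (a mouse melanoma line that expresses ovalbumin) and from draining lymph nodes (LNs) 12 days after engraftment. Control mice carried CD8-Cre and Rosa26Tomato, and CD8-IFNγRKO mice carried both of these and IFNgR1flox/flox, so that the receptor for IFNγ was deleted in mature CD8 T cells only. Both genotypes therefore carried Cre and the Tomato reporter, and the labels gave no age. Each of the 4 groups was 1 library of cells from 3 mice with no tag that ties a cell to a mouse, which means that no test between groups was possible.

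The integrated stress response starts with kinases that each sense a different stress (HRI, PKR, PERK and GCN2) and phosphorylate the translation initiation factor eIF2α. Most translation then slows, while a few transcripts with upstream open reading frames, among them those of Atf4, Atf5, Ddit3 and Ppp1r15a, are translated more. ATF4 in turn drives genes for making, importing and charging amino acids, and in T cells these genes are known to be induced when activation or amino acid shortage raises demand. Because ATF4 and its relatives are set largely by translation, the transcript counts below do not report their protein.

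After filtering, 7088 control and 8627 CD8-IFNγRKO cells remained in the tumors and 6640 and 6731 in the LNs. Tumor cells and LN cells below are the CD8 T cells sorted from these tissues. The libraries held 59185003, 93869513, 29927981 and 28841136 UMIs (unique molecular identifiers, 1 per captured transcript), and the median cell held 6292, 9399, 4051 and 3863 UMIs. Levels are given as CPM, the UMIs of a gene per 1000000 UMIs of the library, with an exact Poisson 95% interval, and ratios with an exact binomial 95% interval. These intervals cover counting error only and not the variation between mice or between libraries. Ifngr1, the deleted gene, was at 719 CPM in control and 238 CPM in CD8-IFNγRKO tumors and at 182 and 137 CPM in the LNs, and whether the counted 5′ end of its transcript lies in the deleted part was not examined. Between 51 and 82 barcodes of retained cells were shared by each pair of libraries. The 7 CD8 T cell markers summed to 8753 CPM in control and 6607 CPM in CD8-IFNγRKO tumors, where all 7 had an interval below 0 and a median log2 ratio of -0.39, and to 5357 and 5593 CPM in LNs. In tumors the melanoma markers summed to 3.24 CPM in control and 2.34 CPM in CD8-IFNγRKO, 10 macrophage markers to 15.8 and 11.5 CPM, and 5 B cell markers to 0.422 and 2.19 CPM. Tumors were digested at 37C with enzymes and LNs were not, so tissue and handling cannot be told apart. In pooled counts of this kind, a change in the share of cells that use a gene and a change in its transcripts per cell cannot be told apart either, so shares of cells are given for the main members.

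IFNγR1 loss in tumors was accompanied by levels at least 1.5-fold higher for 4 of the 9 genes: Ddit4, Asns, Chac1 and Trib3. Chac1 and Trib3 were too rare for the comparison with all genes given below, so no share over all genes stands beside this count of 4. In pooled counts, the transcripts of the transcription factors Atf4 and Atf5 and of the nutrient sensor Sesn2 differed by less than their counting error. Ddit3 was slightly higher and Ppp1r15a slightly lower. In the LNs, the genotypes differed in 1 of these 4, Trib3, and in the opposite direction. A gene entered the comparison with all genes only with at least 5 CPM in 1 of the libraries compared and 50 UMIs in all. By that filter 5 of the 9 genes were retained in tumors (Atf4, Ddit3, Ddit4, Asns and Ppp1r15a), and 2 of the 9, Ddit4 and Asns, passed both the filter and a 1.5-fold difference upward, with none downward. Among all 9023 genes retained, 5.94% were at least 1.5-fold higher and 4.6% at least 1.5-fold lower in CD8-IFNγRKO tumors, and the median gene had a log2 ratio of 0.02. Because counts were high, an interval away from 0 was common: 39.8% of these genes had one above 0 and 35.1% one below 0.

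Ddit4 encodes REDD1, an inhibitor of the growth regulator mTORC1 that also responds to hypoxia and glucocorticoids. It was at 71.6 CPM (69.5 to 73.8) in control tumors, 127 (125 to 129) in CD8-IFNγRKO tumors, 68.7 (65.7 to 71.7) in control LNs and 70.4 (67.4 to 73.6) in CD8-IFNγRKO LNs. The CD8-IFNγRKO tumor library thus stood above the other 3, whose intervals overlapped. The log2 ratio of CD8-IFNγRKO over control was 0.83 (0.78 to 0.88) in tumors and 0.04 (-0.05 to 0.13) in LNs. With every cell thinned to 1600 UMIs, so that deeper cells could not gain detections, 10.7% of control and 16.8% of CD8-IFNγRKO tumor cells had a Ddit4 UMI, against 10.1% and 10.6% in the LNs. The unthinned shares were 33.7% and 51.1% in tumors and 23.2% and 22.9% in LNs. The libraries held 1 sorted cell type, so no cell type that should lack these genes gave a background share from free RNA.

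Asns, the enzyme that makes asparagine from aspartate and glutamine, was found mainly in CD8 T cells from tumors. It had 405 UMIs in control tumors and 1331 in CD8-IFNγRKO tumors, against 5 and 6 UMIs in the LN libraries. These counts gave 6.84 CPM (6.19 to 7.54), 14.2 CPM (13.4 to 15.0), 0.167 CPM (0.0542 to 0.390) and 0.208 CPM (0.0763 to 0.453). The tumor libraries did not overlap with each other or with the LNs, and the LN libraries could not be told apart. The log2 ratio of CD8-IFNγRKO over control in tumors was 1.05 (0.89 to 1.22). Thinned shares of cells were 0.877% (0.663 to 1.14) and 1.56% (1.30 to 1.85), and the unthinned ones were 4.84% and 11.2%.

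Chac1 encodes an enzyme that breaks down glutathione, and Trib3 a pseudokinase that is induced by ATF4 and CHOP and can restrain them. Both were rare, and neither passed the filter in any of the 4 comparisons. Chac1 had 36, 180, 7 and 3 UMIs in control tumor, CD8-IFNγRKO tumor, control LN and CD8-IFNγRKO LN cells, which gave 0.608, 1.92, 0.234 and 0.104 CPM. Trib3 had 24, 153, 62 and 27 UMIs in the same order, or 0.406, 1.63, 2.07 and 0.936 CPM. Chac1 was highest in CD8-IFNγRKO tumors and lower, with intervals that overlapped, in the LNs. Trib3 was lowest in control tumors, while CD8-IFNγRKO tumors and control LNs held the highest levels and overlapped. In tumors the log2 ratio of CD8-IFNγRKO over control was 1.66 (1.13 to 2.22) for Chac1 and 2.01 (1.38 to 2.69) for Trib3. In LNs it was -1.15 (-1.86 to -0.47) for Trib3, while Chac1, with 10 UMIs over both libraries, had an interval from -3.75 to 0.96. In thinned cells, 6 control and 28 CD8-IFNγRKO tumor cells had a Chac1 UMI, and 5 and 21 had a Trib3 UMI.

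**Figure D1:**
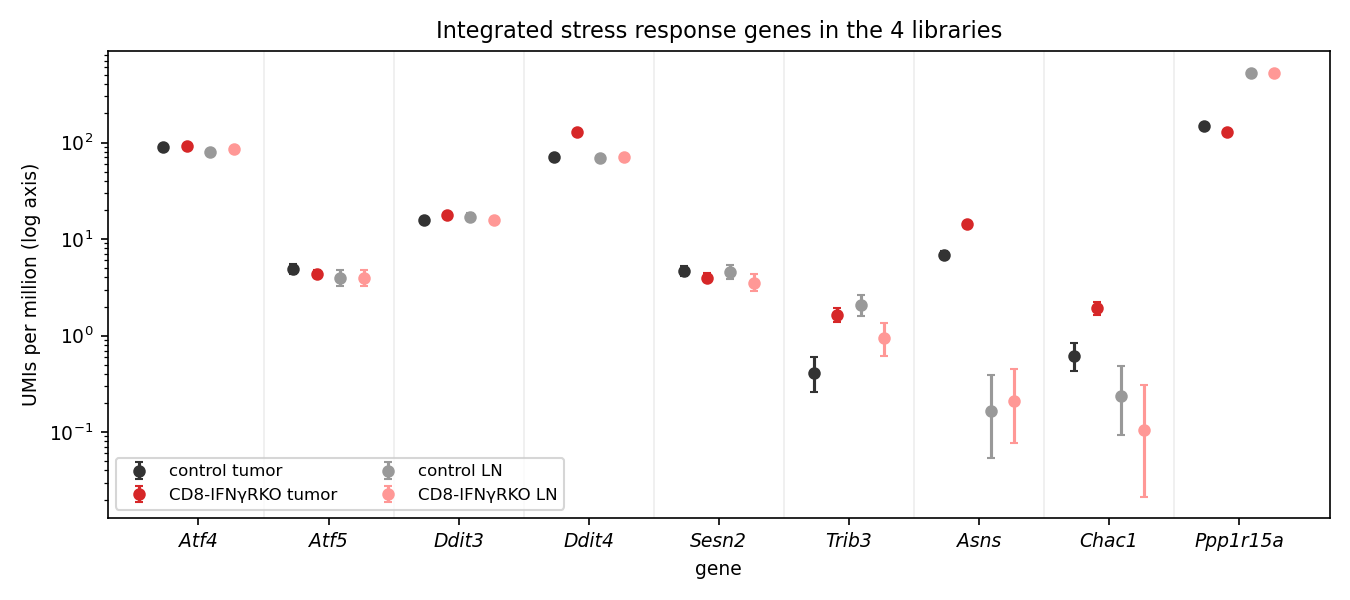
Level of each of the 9 genes in the 4 libraries, as CPM on a log axis, with bars for the exact Poisson 95% interval (counting error only). Asns lies between 6.84 and 14.2 CPM in tumors and near 0.2 CPM in LNs, Ppp1r15a is lower in tumors than in LNs, and Ddit4 is higher in CD8-IFNγRKO tumors than in the other 3 libraries.

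ATF4 binds DNA as a dimer with C/EBP factors at composite elements, and 3 of the genes that were higher in CD8-IFNγRKO tumors held a match to such an element near their start site. The motif searched was TGATGNAA and its reverse complement TTNCATCA, in windows from 250 bases before to 50 bases after each start site of RefSeq genes (build GRCm38.p6). Asns, Chac1 and Trib3 had 1 match each and the other 6 genes had none. Of all 32851 windows, 3.97% held a match on either strand. The stretches around the 3 matches are shown in the direction of the gene, with the motif in capitals, because they are the only matches among the 9 genes. Ddit4, which was also higher in CD8-IFNγRKO tumors, held none.
Asns, chr6:7693210-7693258, minus strand: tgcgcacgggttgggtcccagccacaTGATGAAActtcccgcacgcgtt
Chac1, chr2:119351023-119351082, plus strand: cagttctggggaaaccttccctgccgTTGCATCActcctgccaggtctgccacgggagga
Trib3, chr2:152344028-152344057, minus strand: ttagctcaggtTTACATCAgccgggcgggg
The Asns match was in the searched orientation and lay 23 to 16 bases before the start site. The Chac1 match was in the reverse orientation and lay 193 to 186 bases before the start site. Trib3 also had the reverse orientation and lay 14 to 21 bases after the start site, which is counted as 0. A match is a description of letters in these windows and not evidence of binding, and the absence of one says only that these letters are not in this window.

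Among the regulators, Atf4 itself differed little. It was at 89.1 CPM (86.7 to 91.5) in control tumors, 92.1 (90.2 to 94.1) in CD8-IFNγRKO tumors, 80.3 (77.1 to 83.5) in control LNs and 85.5 (82.2 to 89.0) in CD8-IFNγRKO LNs. The genotypes overlapped within each tissue, and the log2 ratio was 0.05 (-0.00 to 0.10) in tumors and 0.09 (0.01 to 0.17) in LNs. With cells thinned to 1600 UMIs the tumor ratio of Atf4 was 0.18, above that interval. It was -0.12 in the few tumor cells with no heat shock UMI, so its size depended on how cells were weighted and chosen. Atf5, a related factor known for its part in the mitochondrial stress response, was between 3.94 and 4.90 CPM in all 4 libraries, with overlapping intervals. Its log2 ratio was -0.17 (-0.39 to 0.06) in tumors and 0.00 (-0.38 to 0.39) in LNs. Ddit3 encodes CHOP, a C/EBP family factor linked to cell death under prolonged stress. It was at 15.8 and 17.9 CPM in control and CD8-IFNγRKO tumors and at 17.0 and 15.6 CPM in the LNs, with a log2 ratio of 0.17 (0.06 to 0.29) in tumors and -0.12 (-0.31 to 0.06) in LNs.

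Sesn2, a leucine sensor that holds back mTORC1, was between 3.54 and 4.65 CPM in the 4 libraries, and all its intervals overlapped. Its log2 ratio of CD8-IFNγRKO over control was -0.22 (-0.45 to 0.01) in tumors and -0.36 (-0.75 to 0.02) in LNs. Ppp1r15a encodes GADD34, the regulatory subunit that directs protein phosphatase 1 to eIF2α and so ends the response. It was at 149 CPM (146 to 152) in control tumors and 129 (127 to 132) in CD8-IFNγRKO tumors, a log2 ratio of -0.20 (-0.24 to -0.16). With cells thinned to 1600 UMIs that ratio was -0.04, and 22.5% of control and 22.0% of CD8-IFNγRKO tumor cells had a UMI. It was -0.06 as a mean over cells, -0.10 without the 3 largest clones and -0.22 without the 8% of cells with most UMIs, so its size depended on how cells were weighted. In LNs the genotypes were at 529.8 and 529 CPM, with a log2 ratio of -0.00 (-0.04 to 0.03).

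Across the LN libraries, 4 of the 9 genes were retained by the filter (Atf4, Ddit3, Ddit4 and Ppp1r15a), and none of them was past 1.5-fold in either direction. Such differences were rare among all genes there, since 0.273% of 8792 genes were at least 1.5-fold higher and 0.489% at least 1.5-fold lower in CD8-IFNγRKO. An interval above 0 was found for 18.6% and one below 0 for 8.59% of genes in LNs.

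**Figure D2:**
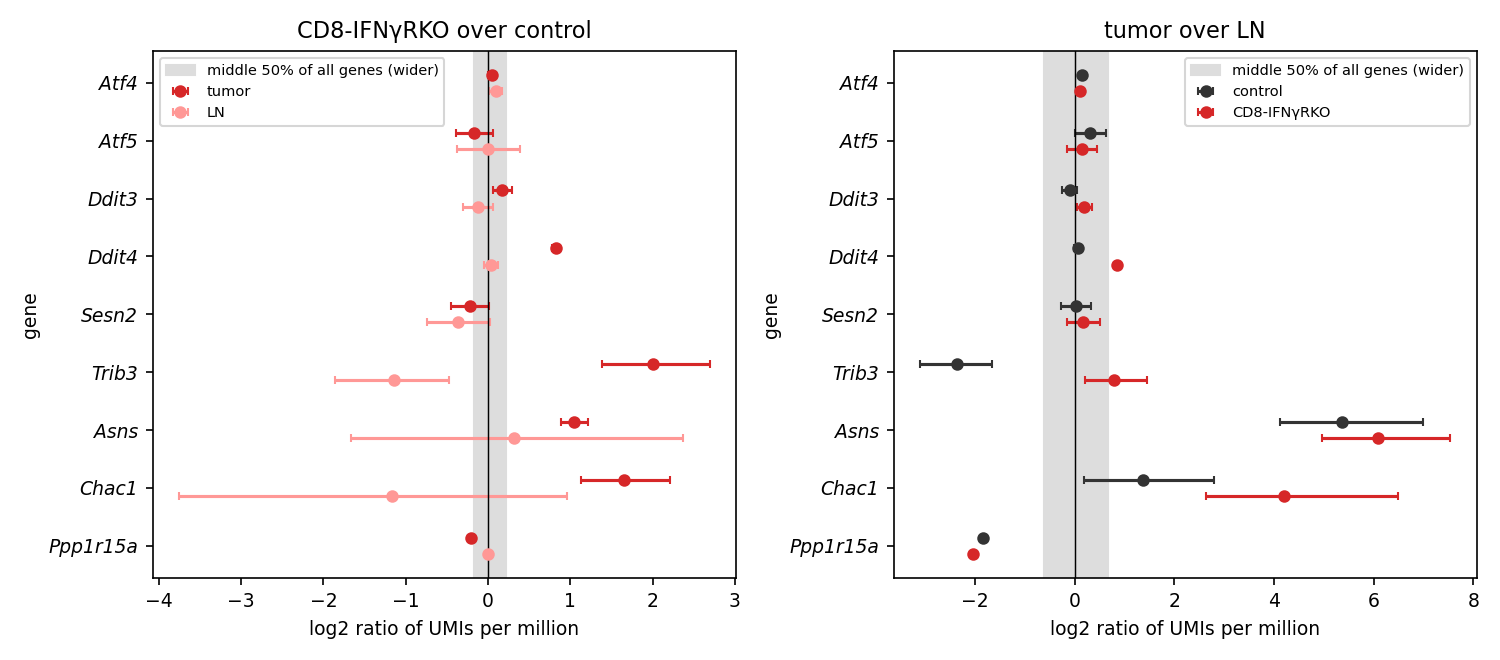
Log2 ratio of each of the 9 genes in the 4 comparisons, with bars for the exact binomial 95% interval (counting error only) a line at 0 and a grey band for the middle 50% of all genes. In tumors, Ddit4, Trib3, Asns and Chac1 lie above 0 for CD8-IFNγRKO over control, whereas in LNs Trib3 lies below 0 and the other 3 intervals include 0.

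Between tumors and LNs, Asns was higher and Ppp1r15a lower in tumors of both genotypes, while Trib3 and Ddit4 differed by genotype. The 5 genes named for tumors also passed the filter in both tumor and LN comparisons. Of these, Asns was past 1.5-fold higher and Ppp1r15a past 1.5-fold lower in control tumors, while 26.2% of all genes were higher and 24.1% lower by that much. In CD8-IFNγRKO cells Asns and Ddit4 were past 1.5-fold higher and Ppp1r15a lower, and 27.7% of all genes were higher and 26% lower. The shares among all genes were large, so these counts do not set the 9 genes apart.

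Asns was 41.0-fold higher in tumors than in LNs of control mice, a log2 ratio of 5.36 (4.12 to 6.99) that rests on 5 UMIs in the LN library. It was 4.13 with every deposited barcode, 4.23 in thinned cells and 2.75 with 1 CPM added to each level. In CD8-IFNγRKO mice the log2 ratio was 6.09 (4.97 to 7.54), with 6 UMIs in the LN. Ppp1r15a was 3.56-fold lower in control tumors than in control LNs, a log2 ratio of -1.83 (-1.87 to -1.79), and 4.09-fold lower in CD8-IFNγRKO tumors, a log2 ratio of -2.03 (-2.07 to -2.00). In thinned cells, 54.0% and 55.1% of LN cells had a Ppp1r15a UMI, against the shares near 22% in tumors given above.

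Ddit4 had a log2 ratio of tumor over LN of 0.06 (-0.02 to 0.14) in control and 0.85 (0.78 to 0.92) in CD8-IFNγRKO cells. Trib3 was lower in control tumors than in control LNs, with a log2 ratio of -2.35 (-3.10 to -1.65), and higher in CD8-IFNγRKO tumors, with 0.80 (0.20 to 1.45). Chac1 had a log2 ratio of 4.20 (2.63 to 6.50) in CD8-IFNγRKO cells. In control cells its ratio was 1.38 (0.19 to 2.79) from 36 and 7 UMIs and was 0.51 without the 8% of cells with most UMIs, so no direction can be given there. These comparisons share their tumor and LN libraries with the genotype comparisons and are not independent of them. Atf4 had small positive ratios of 0.15 and 0.11, Sesn2 of 0.03 and 0.18, and Atf5 of 0.31 and 0.14 (control, then CD8-IFNγRKO), and Ddit3 had -0.10 and 0.19. When library totals were computed without genes of the T cell receptor, heat shock, ribosomal proteins and mitochondria, all tumor over LN ratios moved by -0.26 in control and -0.24 in CD8-IFNγRKO cells. Atf4, Sesn2 and, in CD8-IFNγRKO cells, Atf5 and Ddit3 then had negative ratios, so that no direction can be given for these genes between tissues.

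Summed over the 9 genes, the libraries held 343, 392, 707 and 709 CPM in control tumors, CD8-IFNγRKO tumors, control LNs and CD8-IFNγRKO LNs. Ppp1r15a made up most of the sum in LNs. In thinned cells, 57.4% of control and 52.4% of CD8-IFNγRKO tumor cells had no UMI of any of the 9 genes, and 34.5% and 33.6% of LN cells.

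In tumors, several other known targets of ATF4 showed the genotype difference in the same direction as Asns. The lists they come from were, like the 9 genes, chosen with earlier results of these data known. Aminoacyl-tRNA synthetases, which charge tRNAs with amino acids, were counted with the tRNA exporter Xpot as a list of 13 genes. In tumors all 13 had an interval above 0 for CD8-IFNγRKO over control, as 39.8% of all genes did, with a median log2 ratio of 0.40 against 0.02 over all genes, although only Iars, at 0.61 (0.51 to 0.71), was past 1.5-fold. In LNs 10 of the 13 had an interval below 0, as 8.59% of all genes did, the median was -0.22, and Cars, at -0.62 (-0.81 to -0.44), was past 1.5-fold lower. Genes of amino acid synthesis and one-carbon metabolism numbered 11, of which 8 passed the filter in tumors. Of these, 7 had an interval above 0 and 1, Got1, below 0 at -0.12, and the median was 0.53. Shmt2 at 0.81 and Phgdh at 0.65 and Psat1 at 0.62, all enzymes on the route through serine and glycine, were past 1.5-fold. In LNs 5 of this list had an interval below 0, with a median of -0.17, and Mthfd2, a mitochondrial folate enzyme, was lowest at -0.61 (-0.74 to -0.49).

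Amino acid transporters did not move as a group. Of 9 genes, 5 passed the filter in tumors, with a median of 0.16. Of these, 3 had an interval above 0 and 2 below 0, against 39.8% and 35.1% of all genes. Slc7a5, the light chain of the large neutral amino acid transporter, was past 1.5-fold at 0.86 (0.78 to 0.94) in tumors and was at -0.54 (-0.66 to -0.41) in LNs. Among 9 other targets of ATF4 or CHOP, 4 passed the filter in tumors. Eif4ebp1, an inhibitor of cap-dependent translation, was at 0.59 (0.49 to 0.68), and the proapoptotic Bcl2l11 was at -0.70 (-0.76 to -0.64). Bcl2l11 also has regulators outside this pathway.

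Upstream parts of the pathway were also compared. No gene among 6 eIF2 kinases and GCN2 cofactors and among 11 subunits of eIF2, eIF2B and its phosphatases was past 1.5-fold in tumors or LNs. Among all genes, 5.94% were higher and 4.6% lower by that much in tumors, and 0.273% and 0.489% in LNs. These shares are small, so the absence of such genes does not set the upstream parts apart. The interferon-inducible kinase PKR, Eif2ak2, was at 0.39 (0.30 to 0.48) and the endoplasmic reticulum kinase PERK, Eif2ak3, at -0.45 (-0.53 to -0.36). Of the 11 eIF2 and eIF2B genes, 9 had an interval above 0 and 1 below, against 39.8% and 35.1% of all genes. Their median was 0.23, close to the upper quartile of all genes at 0.22. Of 6 bZIP partners, 4 passed the filter and none was past 1.5-fold in tumors, with Cebpg, a dimer partner of ATF4, at 0.44 (0.36 to 0.53) and Atf3 at -0.30 (-0.38 to -0.21).

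The unfolded protein response, which shares PERK with the integrated stress response but acts also through ATF6 and XBP1, was mixed between genotypes. Of its 19 genes in tumors, 10 had an interval above 0 and 7 below, against 39.8% and 35.1% of all genes. The median was 0.24, close to the upper quartile of all genes at 0.22. Sdf2l1, a chaperone cofactor of the endoplasmic reticulum, was past 1.5-fold higher at 0.71 and Ern1, which encodes the sensor IRE1α, lower, with an interval from -1.10 to -0.90. Between tissues this list was higher in tumors, with 11 genes in control and 14 in CD8-IFNγRKO cells past 1.5-fold and medians of 0.98 and 1.28. Among all genes, 26.2% and 27.7% were higher by that much. Atf6 at 3.06 and Ern1 at 2.95 and Sdf2l1 at 1.80 were the highest in control cells and Dnajb9 at -1.68 the lowest. Sesn1 and Sesn3, the other sestrins, were lower in tumors than in LNs, with log2 ratios of -3.03 and -1.87 in control and -3.03 and -1.90 in CD8-IFNγRKO cells, whereas Sesn2 had no direction.

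Several further lists also differed between the tumor libraries. All 7 mitochondrial chaperones and proteases had an interval above 0, against 39.8% of all genes, with a median of 0.64 and Hspe1 at 0.86, Hspd1 at 0.78, Lonp1 at 0.68 and Hspa9 at 0.64. All 6 hypoxia response genes that passed the filter, of 7, were past 1.5-fold higher, against 5.94% of all genes. Their median was 0.77, with Ankrd37 at 1.09 the highest. In LNs, where 4 of them passed, the median was 0.04. Ddit4 is itself a known target of the hypoxia response. Its level and this list were both higher in CD8-IFNγRKO tumors, and a part of hypoxia in the Ddit4 difference was not tested. Of 5 glucocorticoid response genes, 4 passed, with Fkbp5 at 0.70, Per1 at -0.84 and Klf9 at -0.67, and the median was -0.33. The p53 targets had a median of -0.47, with Phlda3 at -1.53 and Ccng1 at -0.65 past 1.5-fold lower.

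Libraries differed in proliferation, heat shock and immediate early genes as well. Of 10 proliferation genes, 10 had an interval above 0 for CD8-IFNγRKO over control in tumors, against 39.8% of all genes. Their median was 0.58, with summed levels of 1040 CPM in control and 1535 CPM in CD8-IFNγRKO tumors. Heat shock genes summed to 4924 CPM in control and 7343 CPM in CD8-IFNγRKO tumors and to 4303 and 5570 CPM in LNs. In tumors 7 of the 9 heat shock genes were past 1.5-fold higher, against 5.94% of all genes. Immediate early genes, which rise within minutes of a stimulus, summed to 3483 and 2432 CPM in tumors and to 5477 and 5188 CPM in LNs. Of these 10 genes, 6 were past 1.5-fold lower in CD8-IFNγRKO tumors, against 4.6% of all genes. The part of these lists in the differences of the 9 genes was not tested, and the comparisons within cell groups that follow are a description only.

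**Figure D3:**
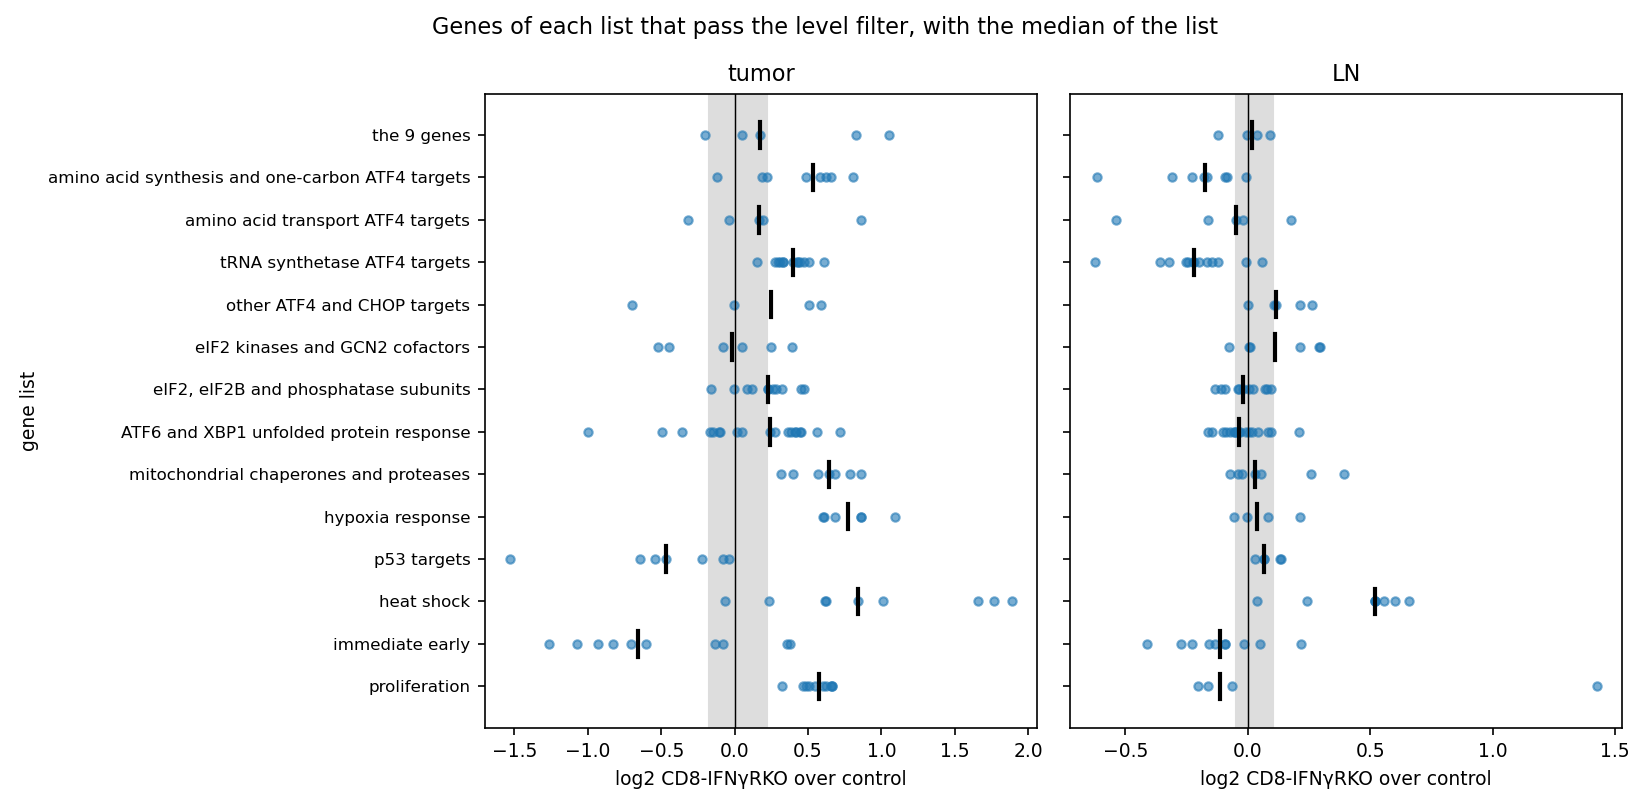
Log2 ratio of CD8-IFNγRKO over control for the genes of each list that passed the filter, in tumors and in LNs, 1 point per gene, with a black line for the median of the list and a grey band for the middle 50% of all genes. The tRNA synthetases lie above 0 in tumors and mostly below 0 in LNs, with medians of 0.40 and -0.22.

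Ddit4 and Asns were also higher in CD8-IFNγRKO tumors within groups of cells defined by these lists. In thinned cells with 0, 1 to 2, or 3 or more UMIs of the proliferation list, the log2 ratio of CD8-IFNγRKO over control was 0.85, 0.78 and 0.87 for Ddit4 and 1.11, 0.86 and 0.85 for Asns. By UMIs of the immediate early list it was 0.92, 0.83 and 0.93 for Ddit4 and 0.65, 1.14 and 0.94 for Asns. By UMIs of the heat shock list, with 1 to 2 and 3 or more UMIs, it was 0.89 and 0.83 for Ddit4 and 1.32 and 1.04 for Asns. For both genes the interval stayed above 0 in each of these cell groups. Too few cells had no heat shock UMI, 33 in control and 13 in CD8-IFNγRKO tumors, to give a ratio for Asns, while Ddit4 was at 1.20 (0.38 to 2.04) in them. Trib3 had ratios of 1.57, 2.25 and 2.43 and Chac1 of 0.88, 2.07 and 2.04 over the proliferation groups, from few UMIs.

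The genotype ratios were also taken at matched rank of cell depth. When the cells of each tumor library were split into quartiles by their own UMIs, the log2 ratio for Ddit4 was 0.64, 0.94, 0.79 and 0.82 from the shallowest to the deepest quartile. Asns had 0.24 (-0.58 to 1.10), 0.70, 1.04 and 1.19, so that its genotype difference was not detectable in the shallowest cells, which held 20 and 37 UMIs of Asns. Within a library, Asns was higher in the deepest than in the shallowest quartile, by 0.70 in control and 1.65 in CD8-IFNγRKO tumors on the log2 scale. From the shallowest to the deepest quartile, the median cell held 2200.5, 5015.5, 8080 and 15794 UMIs in control tumors. In CD8-IFNγRKO tumors it held 2610, 7052, 11882 and 19755 UMIs, so matched rank did not match depth. The part of this depth difference in the quartile ratios was not tested.

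**Figure D4:**
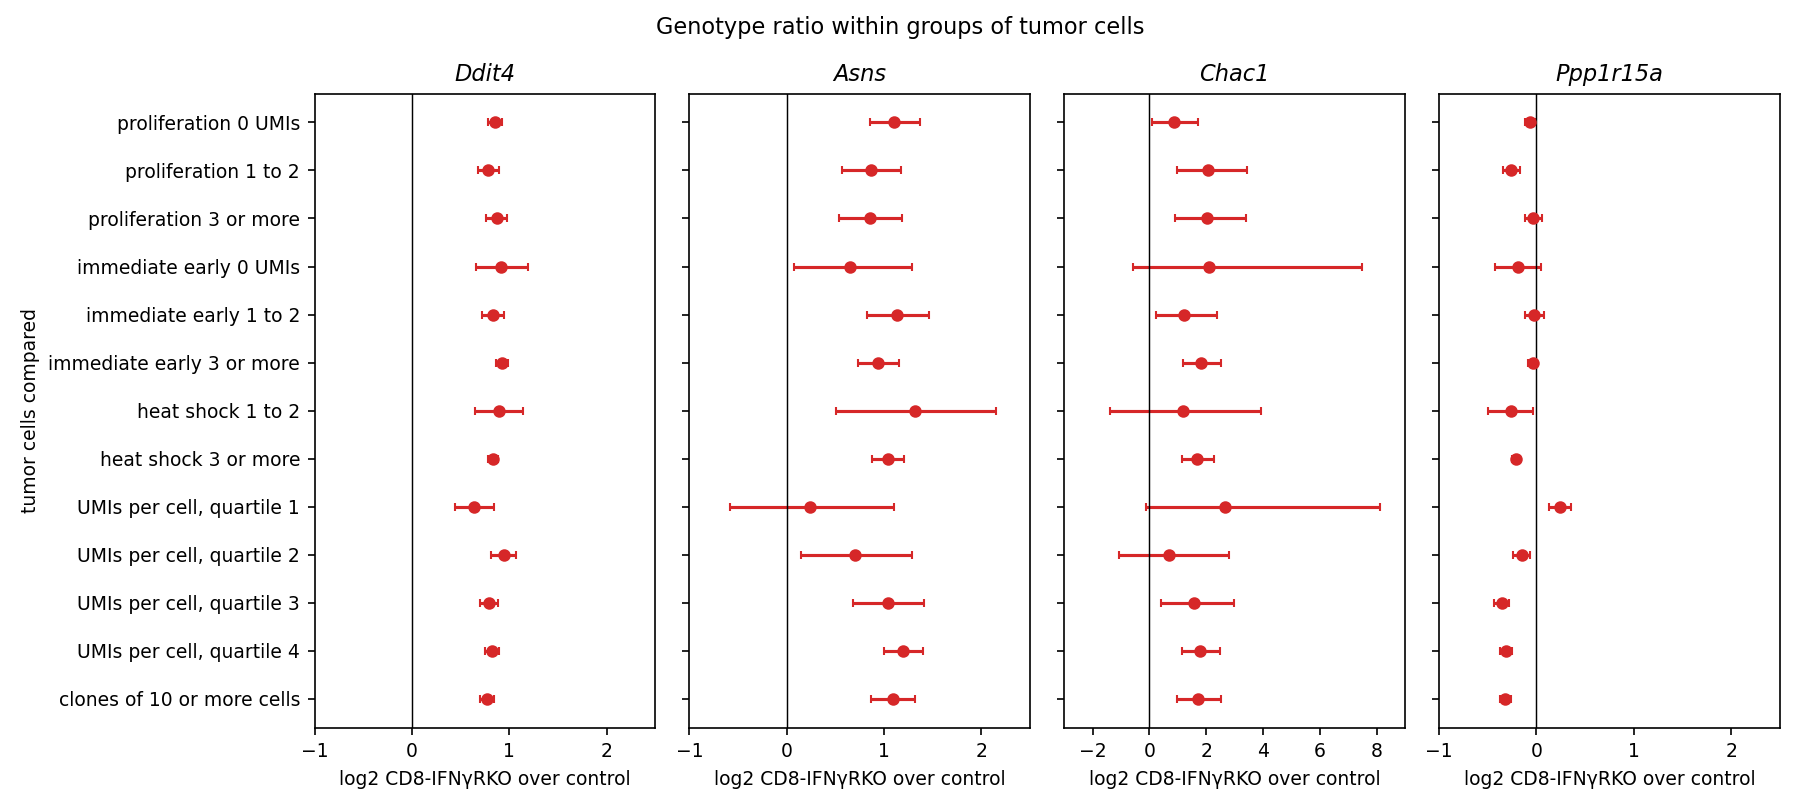
Log2 ratio of CD8-IFNγRKO over control for Ddit4, Asns, Chac1 and Ppp1r15a within groups of tumor cells, by UMIs of the proliferation, immediate early and heat shock lists, by quartile of UMIs per cell and in clones of 10 or more cells, with exact binomial 95% intervals (counting error only). In the groups drawn, which leave out cells with no heat shock UMI, Ddit4 lies between 0.64 and 0.94, Asns is lowest in the shallowest quartile at 0.24, and Ppp1r15a is above 0, at 0.24, in the shallowest quartile and below 0 in the other groups.

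T cell receptor sequences, read for the tumor libraries, let the levels be followed within clones, which are cells with the same V, J and CDR3 sequences of both chains. A clone was assigned to 4281 control and 5934 CD8-IFNγRKO tumor cells. The 10 largest clones held between 55 and 1104 cells in the control and between 133 and 1463 cells in the CD8-IFNγRKO library, and were chosen for examination after the pooled values had been seen. Clones of 1 library share its preparation and are not replicates of a genotype.

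Ddit4 ranged over the control clones from 57.1 to 93.9 CPM, with a median of 74.3, and over the CD8-IFNγRKO clones from 103 to 188 CPM, with a median of 127. Every CD8-IFNγRKO clone was above every control clone. The cells of these clones are part of the pooled counts, which already differed at 71.6 and 127 CPM. No share of all genes whose clones separate in this way was counted, so the separation does not set Ddit4 apart. Asns ranged from 3.34 to 9.21 CPM, with a median of 6.86, in control and from 6.39 to 24.4 CPM, with a median of 15.9, in CD8-IFNγRKO clones. Of the 10 CD8-IFNγRKO clones, 9 were at 13.6 CPM or more, above all control clones, and the exception was a clone of 149 cells with 4 Asns UMIs. Trib3 was at 0 in 6 of the 10 control clones and reached 1.04 CPM, and was between 1.15 and 3.48 CPM in the CD8-IFNγRKO clones. Chac1 was at 0 in 5 control clones and reached 1.06 CPM, and was between 0.575 and 4.25 CPM in the CD8-IFNγRKO clones. The clones held between 299466 and 8497506 UMIs in the control and between 626413 and 17945003 in the CD8-IFNγRKO library. At the pooled levels of Trib3 and Chac1 the smaller clones would hold few UMIs or none. A value of 0 in a clone is therefore not informative for these genes. For Ppp1r15a, Atf4 and Ddit3, whose pooled ratios were small, the clones of both libraries overlapped. Their ranges in control and CD8-IFNγRKO clones were 104 to 197 and 91.6 to 222 CPM for Ppp1r15a, 82.2 to 113 and 83.5 to 105 CPM for Atf4, and 6.68 to 22.2 and 12.0 to 41.5 CPM for Ddit3.

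**Figure D5:**
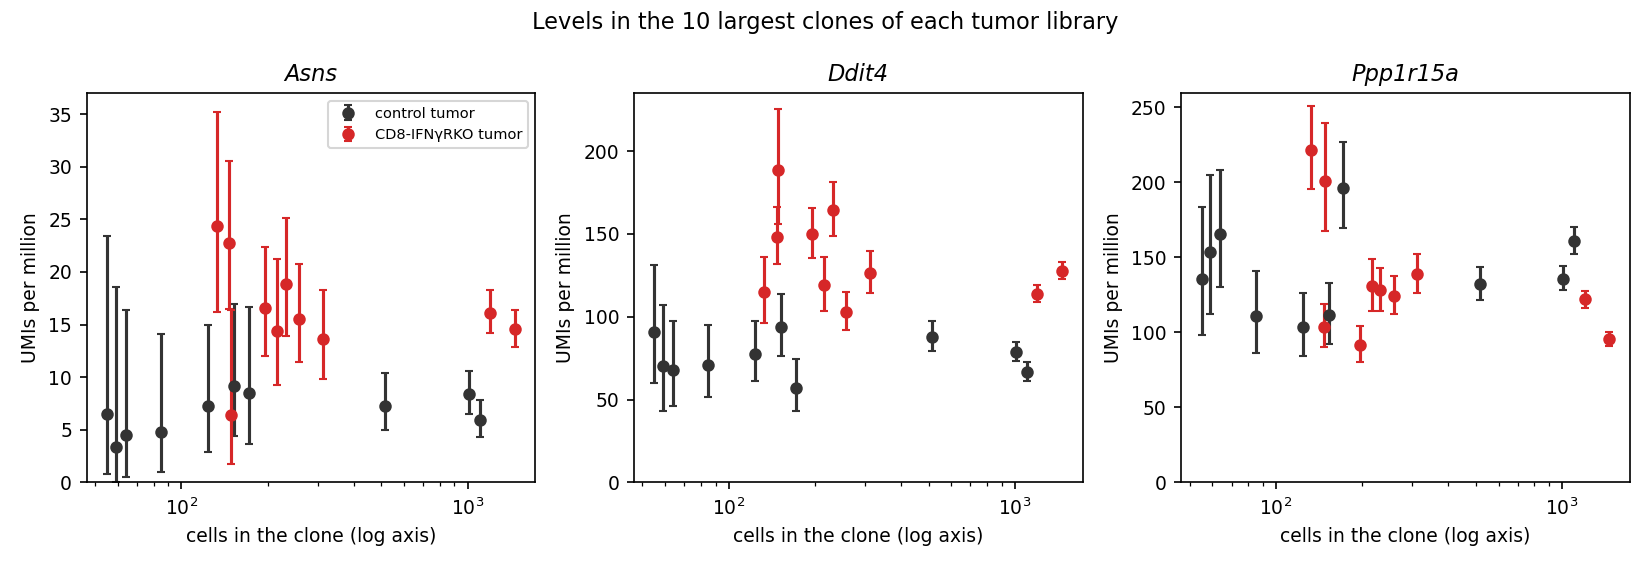
CPM of Asns, Ddit4 and Ppp1r15a against the number of cells (log axis) in the 10 largest clones of each tumor library, 1 point per clone with its exact Poisson 95% interval (counting error only). For Ddit4 the lowest CD8-IFNγRKO clone, at 103 CPM, lies above the highest control clone, at 93.9 CPM, and for Ppp1r15a the clones overlap.

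Clone size itself went with the level of several genes within a library. Ppp1r15a was at 265 CPM in control and 377 CPM in CD8-IFNγRKO cells whose clone held 1 cell, and at 146 and 117 CPM in clones of 10 or more cells. Cells with a Tcf7 UMI, a marker of stem-like T cells, likewise held more Ppp1r15a than cells without it, by 0.95 in control and 1.58 in CD8-IFNγRKO tumors on the log2 scale. The genotype ratio of Ppp1r15a differed in sign between these groups: it was 0.39 (0.19 to 0.58) in cells with a Tcf7 UMI, 0.51 in clones of 1 cell and -0.32 in clones of 10 or more. Ddit4 was at 39.6 and 95.01 CPM in clones of 1 cell and at 76.3 and 130.0 CPM in clones of 10 or more. Its genotype ratio was 1.26 in clones of 1 cell, with 36 UMIs in the control library, and 0.77 in clones of 10 or more. Asns had a genotype ratio of 1.09 (0.87 to 1.32) in clones of 10 or more cells. In smaller clones it was not resolved, at 0.64 (-1.36 to 3.17) in clones of 1 cell, from 3 control and 9 CD8-IFNγRKO UMIs, and at -1.66 (-3.75 to 0.06) in clones of 2 to 9 cells, from 12 and 4 UMIs. Among cells with an assigned clone, the Asns difference between the tumor libraries was thus resolved only in clones of 10 or more cells. Cells without an assigned clone were not compared separately. Depth also differed between these groups, and its part in these levels and ratios was not tested. The median was 4041 UMIs in control and 3997.5 in CD8-IFNγRKO cells of 1-cell clones, against 6323 and 10501 in clones of 10 or more. It was 3703 and 3923 UMIs in cells with a Tcf7 UMI, against 7026 and 10115.5 in cells without.

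Ppp1r15a tracked the immediate early genes in all 4 libraries. In cells with 0, 1 to 2, and 3 or more UMIs of that list it was at 72.4, 88.2 and 172 CPM in control tumors and 63.3, 86.8 and 167 CPM in CD8-IFNγRKO tumors. In LNs it was at 233, 366 and 544 CPM in control and at 254, 396 and 542 CPM in CD8-IFNγRKO cells. Ppp1r15a is known as an early growth arrest and damage response gene, and LN cells exceeded tumor cells within each of these groups. Asns went the other way in tumors, with log2 differences of -0.71 in control and -0.42 in CD8-IFNγRKO tumors between cells with 3 or more and with 0 immediate early UMIs. In the same contrast, the log2 differences of Ddit4 were 0.64 and 0.65 in tumors and -0.71 and -0.28 in LNs. The LN values rest on 63 control and 56 CD8-IFNγRKO cells with 0 immediate early UMIs. Depth differed in tumors, with medians of 8010 and 12834 UMIs in cells with 0 immediate early UMIs. Cells with 3 or more had medians of 6539.5 and 8123 UMIs. The part of depth in these contrasts was not tested.

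Exactly 2 of the 9 genes had a UMI in 7.80% of control and 9.61% of CD8-IFNγRKO thinned tumor cells. In thinned LN cells these shares were 12.8% and 13.3%, and at most 4 of the genes had a UMI in 1 thinned cell. Thinning lowers such shares. Without it, Ppp1r15a, Atf4 and Ddit4 had a UMI in 62.2%, 54.4% and 51.1% of CD8-IFNγRKO tumor cells. Joint detection was counted in thinned cells only, and no share expected from the single genes was computed. Whether the genes are used in the same cells was therefore not tested. In CD8-IFNγRKO tumors, Ddit4 had a UMI in 29 of 130 cells with an Asns UMI, or 22.3%, and in 1373 of 8219 cells without, or 16.7%. Atf4 had one in 11 of 130 cells with an Asns UMI, or 8.46%, and in 14.6% of cells without. Chac1 had one in 2 of 21 cells with a Trib3 UMI and in 26 of 8328 cells without. The counts for cells with an Asns or Trib3 UMI are sparse, and all of these shares are given as a description only.

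To describe what else was high in cells that used these genes, thinned tumor cells with at least 2 UMIs summed over Ddit3, Trib3, Asns, Chac1, Sesn2 and Atf5 were set against cells with none. They numbered 11 in control and 24 in CD8-IFNγRKO tumors. The 10 highest genes in the control set rested on 2 to 8 UMIs each, and 8 of the 10 had no UMI in the CD8-IFNγRKO set, with the exceptions of Gm20628 and Tnfsf9, so no likeness can be read from them. A larger set was therefore defined after the values had been seen, as cells with a thinned UMI of Asns, Chac1 or Trib3, which held 67 control and 176 CD8-IFNγRKO cells. These cells were deeper than the others, with a median of 8868 against 6917 UMIs in control and 12904 against 9633 UMIs in CD8-IFNγRKO tumors. Of the 10 genes with the highest ratios in control cells, 2 had an interval above 0 in CD8-IFNγRKO cells, the chemokine gene Xcl1 at 1.98 in control and 1.52 in CD8-IFNγRKO, and Gemin6 at 1.35 and 0.69. The other 8 had intervals that included 0 in CD8-IFNγRKO cells. Of the 13 tRNA synthetase list genes, 4 in control and 12 in CD8-IFNγRKO cells had an interval above 0 for cells in the set over the others, with medians of 0.27 and 0.52. For amino acid synthesis the counts were 3 of 8 and 6 of 8, for transport 1 of 5 and 6 of 6, and for the hypoxia response 3 of 6 in each library. Of the 6 transporters, Slc1a4 passed the filter only through the cells of the set, at 5.24 CPM there and 2.21 CPM in the others. Its place in that count therefore follows in part from the filter. Among all genes outside the 9, 7.40% had such an interval in control and 11.8% in CD8-IFNγRKO cells, and 4.55% and 8.08% had one below 0. The set held 684355 UMIs in control and 2481542 in CD8-IFNγRKO cells, so intervals were wider in control. Of the proliferation list, Birc5, Tpx2, Cenpf, Nusap1, Ube2c, Ccnb2 and Hmmr had an interval below 0 in CD8-IFNγRKO cells, and Mki67 had one above 0. In control cells Ube2c had one below 0, and those of the other proliferation genes included 0. Atf4 was at 0.20 (-0.16 to 0.54) and 0.19 (0.01 to 0.37), Ddit4 at 0.50 and 0.22, and Ppp1r15a at 0.15 and -0.07. The part of the greater depth of these cells in these ratios was not tested.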

How the data were processed

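CD8 T cells sorted from tumors and draining LNs were profiled with the 10x Genomics Single Cell 5′ v2 kit as 4 gene expression libraries, with T cell receptor libraries for both tumors. The authors deposited raw UMI counts per gene and barcode as filtered matrices, and the submitters' processing notes name Cell Ranger and mm10. Following the study's methods, a barcode was retained if it had 200 to 6000 genes, if mitochondrial genes took up to 3% and any single gene up to 20% of its UMIs, and if it had a UMI each of Cd2, Cd8a and Cd8b1. In place of the study's removal of a macrophage cluster, barcodes with UMIs of 3 or more of 10 macrophage markers were removed (15, 9, 1 and 0 cells). Doublets were not called, and leaving out the 8% of cells with most UMIs was tried instead. Counts were pooled per library and scaled to CPM.

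With 1 library per group no test was made. Levels have exact Poisson, shares exact Clopper-Pearson and ratios exact conditional binomial 95% intervals, and a count of 0 was set to 3 UMIs as a bound. Cells were thinned to 1600 UMIs for shares, which left out 701, 278, 237 and 41 shallower cells in control tumors, CD8-IFNγRKO tumors, control LNs and CD8-IFNγRKO LNs. Ddit3 is listed under a second identifier with no UMIs, which was not used. Clones were defined by V, J and CDR3 nucleotides of the alpha and beta contig with most UMIs. Promoter windows are from RefSeq, GRCm38.p6, and were found for all 9 genes.

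The 9 genes and the other gene lists were chosen with earlier results of these data known. The text names all 9 genes and, of each other list, genes past 1.5-fold or the highest and lowest, with further genes named for their role in the pathway after their values were seen. Ratios were tested on simulated counts. Alternatives were thinning, other scalings and filters, 1 CPM added, a mean over cells, leaving out the 3 largest clones, and cells with no UMI of the proliferation, heat shock or immediate early lists. Python 3.11.15 with NumPy 2.4.6, SciPy 1.17.1, pandas 2.3.3 and matplotlib 3.10.9 was used.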

Additional observations from a re-analysis of the deposited data

Results flagged for a closer look

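Trib3 had opposite genotype ratios in the tissues, with CD8-IFNγRKO over control at 2.01 on the log2 scale (1.38 to 2.69) in tumors, from 153 and 24 UMIs, and -1.15 (-1.86 to -0.47) in LNs, from 27 and 62 UMIs. In the list of tRNA synthetases, 10 of 13 genes had an interval above 0 in tumors and below 0 in LNs. In the list of amino acid synthesis and one-carbon enzymes, 5 of 11 genes did so. The pattern was also held by 3 of 9 amino acid transporters and 2 of 11 subunits of eIF2, eIF2B and its phosphatases. It was held by 2 of 10 immediate early genes and 1 of 19 unfolded protein response genes as well. Among all 8130 genes that passed the filter in both tissues, 305 genes, or 3.75%, had this pattern, and 667, or 8.20%, had the reverse. With 1 library per group, none of these differences between tissues was tested. The CD8-IFNγRKO tumor library was deeper than the control tumor library, with a median of 9399 against 6292 UMIs per cell, and the LN libraries were alike in depth, with 3863 and 4051. The part of depth in the pattern was not tested.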

How the results depend on the processing

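No paired analysis was possible because each group was 1 library, and for the same reason no replicate could be left out. In tumors, the log2 ratio of CD8-IFNγRKO over control ranged over the alternatives from 0.75 to 1.20 for Ddit4, from 0.65 to 1.11 for Asns, from 0.90 to 2.44 for Trib3 and from 0.86 to 2.06 for Chac1. The lowest values of Trib3 and Chac1 came from adding 1 CPM to each level, which shrinks the ratios of rare genes by its construction. In cells with no immediate early UMI, 0 of the 9 genes were past 1.5-fold higher and 2 lower in tumors over LNs, in control (Ppp1r15a, and Ddit4 at -1.19) as in CD8-IFNγRKO cells (Ppp1r15a, and Ddit3 at -1.08, with Ddit4 at 0.13 no longer past it). In cells with no proliferation UMI, 0 were higher in control and 1 in CD8-IFNγRKO cells. In these subsets the LN libraries held too few Asns UMIs to give a ratio. The LN cells with no immediate early UMI were only 63 in control and 56 in CD8-IFNγRKO mice, and their ratios are given without an interval. No share over all genes was counted in these subsets, so the counts there do not set the 9 genes apart. With a 2-fold limit, 1.26% of all genes were higher and 1.46% lower in CD8-IFNγRKO tumors, 0.0455% and 0.0569% in LNs, 16.8% and 12.6% in tumors over LNs of control mice, and 17.7% and 14.4% of CD8-IFNγRKO mice. With a minimum of 20 CPM, 0.107% of genes were higher and 0.232% lower in LNs. With all UMIs of each cell in place of thinned ones, 7 of the 9 genes had a larger share of cells in CD8-IFNγRKO tumors and 1 a smaller share in CD8-IFNγRKO LNs, and 7 (control) and 8 (CD8-IFNγRKO) had a larger share in tumors over LNs, in each case with intervals apart. Deeper cells gain detections, and no share over all genes was counted beside these, so these counts do not set the 9 genes apart. In thinned tumor cells the genotype intervals lay apart for Ddit4, Asns and Chac1 only. No share over all genes was counted for thinned cells either, so this does not set these genes apart. Genes with few UMIs, such as Chac1, Trib3 and LN Asns, were limited by depth.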
